A study of Mus musculus with 12 samples.

Results

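The fibrils of cartilage are built from collagens II, IX and XI, and these collagens were followed here through every array probe that the scanner files assign to Col2a1, Col9a1, Col9a2, Col9a3, Col11a1 or Col11a2. The selection gave 6 genes with 10 probes on 19 spots, out of 27962 gene names with 41174 probes on 43379 spots that are not controls. Col2a1 has 3 probes, of which 1 is printed 10 times, Col9a1, Col9a2 and Col9a3 have 1 each, and Col11a1 and Col11a2 have 2 each. Of the 10 probes, 9 were well above background on all 12 arrays. The remaining probe, designed on a Col2a1 cDNA (AK053784), stayed too close to background on all 12 arrays, at 8.53 to 9.01 on the log2 scale, so no fold change is given for it.

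The study asked how chondrocytes of the hypertrophic growth plate zone respond when a misfolded protein is retained in their endoplasmic reticulum. RNA from the hypertrophic zone of the tibia was amplified and hybridised in a single colour, 1 array per mouse, with 3 mice of 14 days in each of 4 groups. Schmid mice are homozygous for a knock-in of a Schmid metaphyseal chondrodysplasia mutation in Col10a1, the collagen X gene. Cog mice carry a transgene in which the Col10a1 promoter drives the misfolding cog form of thyroglobulin, so that it is made only where that promoter is active, and mice with the transgene on 1 or on both chromosomes were not separated. Each mutant has its own wildtype group, Wt (Schmid background) and Wt (Cog background), without the mutant allele or transgene. The tissue was dissected by hand, so each array averages over all cells of the piece, and fewer cells of a type cannot be told apart from less RNA per cell.

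Collagen II is a trimer of identical chains encoded by Col2a1 and forms the bulk of the cartilage fibril. Collagen XI, assembled from the Col11a1 and Col11a2 chains with a chain made from the Col2a1 gene, lies in the core of the fibril and limits its width, and collagen IX, assembled from the Col9a1, Col9a2 and Col9a3 chains, sits on the fibril surface and links it to the surrounding matrix. Proliferating chondrocytes make all of these collagens, and collagen X marks the hypertrophic cells that follow.

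The array reads each gene through probes of 60 bases, and 5 probe sequences are shown because they decide which values can be read together. The scanner files place them on mouse build mm7. Both Col2a1 probes on the gene's RefSeq transcript lie on the minus strand of chromosome 15, at chr15:97979237-97979296 (10 spots) and chr15:97979257-97979316 (the second probe), and the capitals mark the 40 bases they share, so they are not independent measurements.
Col2a1, 10-spot probe: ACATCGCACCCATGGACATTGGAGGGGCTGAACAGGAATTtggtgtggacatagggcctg
Col2a1, second probe: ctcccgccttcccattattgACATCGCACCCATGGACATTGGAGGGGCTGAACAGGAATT
The dim probe of Col11a2 (chr17:32131401-32131567, plus strand, interrupted in the genome) is triple-helix sequence, in which glycine recurs at a fixed interval: read from its first base, 6 of its 20 codons are glycine codons (GGN), in capitals, each preceded by a pair of other codons.
Col11a2, dim probe: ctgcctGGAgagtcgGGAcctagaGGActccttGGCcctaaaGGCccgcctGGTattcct
The dim probe of Col11a1 (chr3:113845479-113845538, plus strand) and the probe of Col9a3 (chr2:181116761-181117343, plus strand, interrupted in the genome) each have 1 reading frame without a stop codon. No letters are marked in them.
Col11a1, dim probe: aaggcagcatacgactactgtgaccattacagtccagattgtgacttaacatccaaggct
Col9a3: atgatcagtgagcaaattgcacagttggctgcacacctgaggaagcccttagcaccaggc
The bright probe of Col11a1 lies 129.1 kb further along the gene than the dim probe, at chr3:113974545-113974604, and the bright probe of Col11a2 13.8 kb further along than its dim probe, at chr17:32145178-32145237. Col9a1 is read at chr1:24461980-24462039 and Col9a2 at chr4:120495071-120495130.

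Levels are log2 intensities after background correction and quantile normalization, and a probe was called when its Benjamini-Hochberg adjusted p over all probes was 0.05 or less and its change was at least 2-fold. The share of probes well above background was 39.2% to 61.4% per array. The arrays lie on 4 slides. The Schmid arrays share a slide that holds no other group, Wt (Cog background) another, replicates 1 and 2 of Wt (Schmid background) another, and replicate 3 of Wt (Schmid background) shares the last with the Cog arrays, so slide and genotype cannot be told apart in the Schmid and Cog comparisons. The chondrocyte markers (Agc1, Comp, Hapln1, Sox9, Lect1) were well above background on all 12 arrays. Col10a1 had mean levels of 14.21 in Schmid and 14.23 in its wildtype, and a level cannot check the label of a knock-in that changes the encoded chain.

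In Schmid, at least 1 probe of each of the 3 collagens was lower than in the wildtype past the adjusted p threshold. Of the 10 member probes, 4 were called lower in Schmid than in its wildtype and 0 were called higher, against 4.69% of all probes called lower and 5.78% called higher. The called probes were those of Col9a2 and Col9a3, the dim probe of Col11a1 and the bright probe of Col11a2. For 6 of the 10 probes the highest Schmid array was below the lowest wildtype array, against 26% of all probes. At adjusted p alone, with no limit on size, 5 of the 10 probes were lower, against 13.3% of all probes. The median log2 fold change of the 6 genes at their brightest probes, that of Col11a1 being the saturated one described further on, was -1.04, beside -0.06 over all probes.

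**Figure D1:**
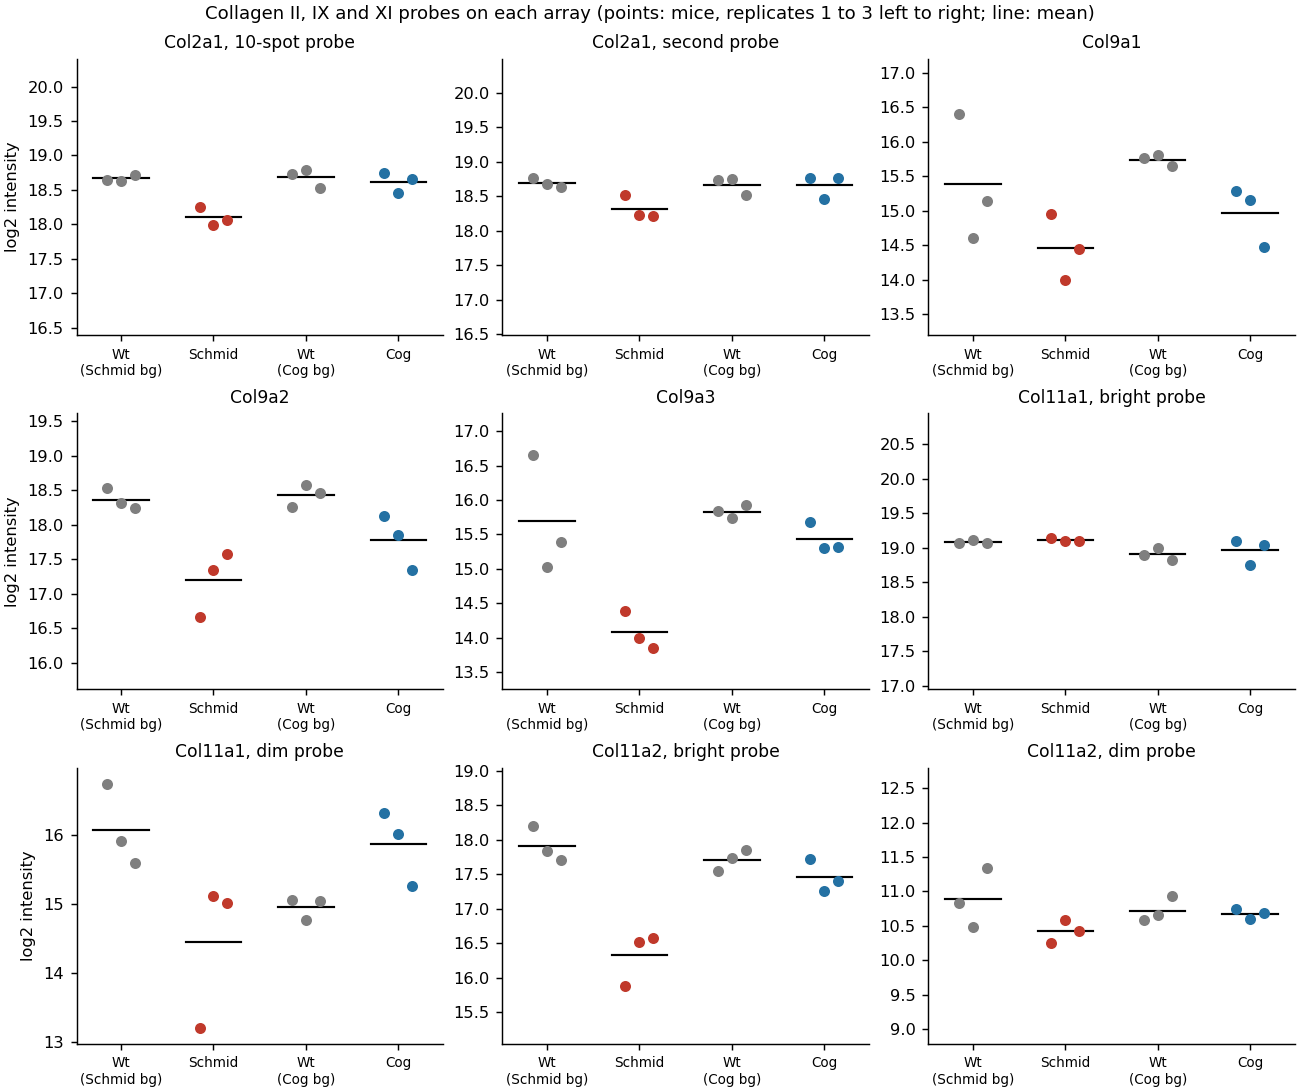
Normalized log2 intensity (vertical axis, each panel spanning 4 log2 units) of the 9 probes above background in the 4 groups. Points are mice and lines are group means. Schmid lies below its wildtype on every array for both Col2a1 probes, Col9a2, Col9a3, the dim Col11a1 probe and the bright Col11a2 probe, and the bright Col11a1 probe is level at about 19 in all groups.

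Col2a1 encodes the chain of collagen II. Its 10-spot probe read 18.25, 18.00 and 18.06 on the Schmid arrays and 18.64, 18.64 and 18.72 on the Wt (Schmid background) arrays. The groups did not overlap, and the spread within each was small. The log2 difference was -0.56 (95% confidence interval -0.83 to -0.30, adjusted p = 0.0085), below the 2-fold limit. The second probe read 18.53, 18.23 and 18.22 in Schmid against 18.77, 18.69 and 18.64, a difference of -0.37 with an adjusted p of 0.064. Col2a1 was therefore lower by a small amount at 1 probe and not past the threshold at the other. With smooth trends over array rows and probe GC content removed, the 10-spot difference was -0.23 (adjusted p = 0.29), and with the processed signal scaled to a common 75th percentile it was -0.91 (adjusted p = 0.14).

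Both Col2a1 probes were near the top of the measured range. Raw intensities of the 10-spot probe ran from 25.0% to 91.5% of the scanner's saturation value, with 1 of 120 spots saturated. The 10 spots are spread over rows 10 to 498 of the array's 532 rows, which allows the Schmid change to be read at each position. All 10 spots had every Schmid array below every wildtype array, with differences from -0.75 to -0.35. The 2 spots in rows below 160 averaged -0.73 and the other 8 averaged -0.52. After a trend over the rows was removed from each array, the differences ran from -0.69 to -0.39. The spots of a probe on 1 array share the sample and are not replicates. Within an array they spanned 0.36 to 0.44 log2 units in Schmid and 0.15 to 0.23 in Wt (Schmid background).

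**Figure D2:**
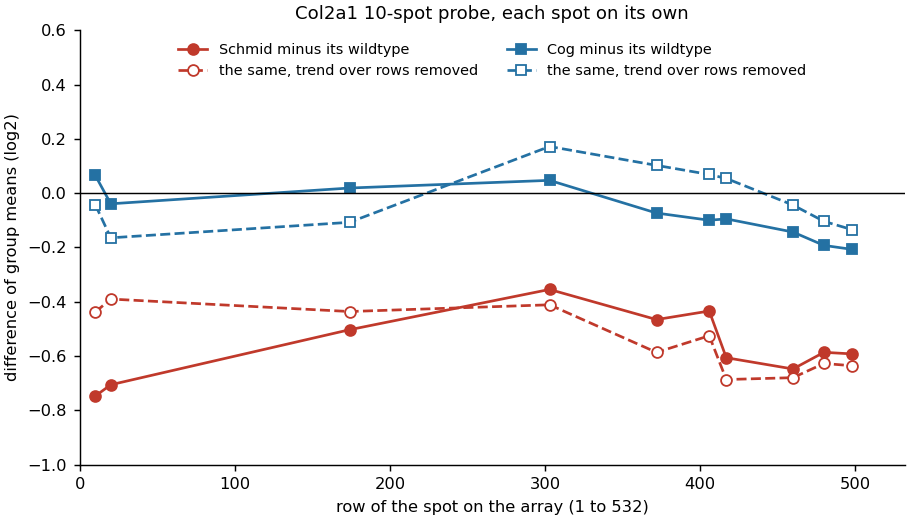
Difference between group means (log2, vertical axis) for each of the 10 spots of the Col2a1 probe against its row on the array (horizontal axis), as measured (filled) and with a trend over the rows removed (hollow). As measured, the Schmid differences lie between -0.75 and -0.35 at every row and the Cog differences between -0.21 and 0.07. With the trend removed they lie between -0.69 and -0.39 in Schmid and between -0.16 and 0.17 in Cog.

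Of the 3 chains of collagen IX, Col9a3 and Col9a2 fell past both limits and Col9a1 did not. Col9a3 read 14.38, 14.00 and 13.86 in Schmid and 16.65, 15.03 and 15.40 in Wt (Schmid background). Every Schmid array was below every wildtype array, and wildtype replicate 1 stood above the other two. The fold change was -3.06 (log2 -1.62, 95% confidence interval -2.37 to -0.86, adjusted p = 0.0082). Without wildtype replicate 1 the log2 difference was -1.14 and the call held.

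Col9a2 read 16.66, 17.35 and 17.58 in Schmid and 18.53, 18.32 and 18.24 in its wildtype, with no overlap. The fold change was -2.25 (log2 -1.17, 95% confidence interval -1.72 to -0.61, adjusted p = 0.0088). Its single spot is in row 98, and the 2-fold limit was no longer reached once the trend over rows was removed (log2 -0.91, adjusted p = 0.030), without Schmid replicate 1 (log2 -0.90, adjusted p = 0.026) or with arrays weighted by quality (log2 -0.91, adjusted p = 0.010). From the scanner software's processed signal the adjusted p was 0.052 (log2 -0.84) after quantile normalization and 0.060 (log2 -1.19) after scaling to a common 75th percentile.

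Col9a1 read 14.95, 14.00 and 14.45 in Schmid and 16.40, 14.61 and 15.14 in its wildtype. These groups overlapped, and the wildtype mice differed among themselves by more than the group means did. The difference was -0.92 (95% confidence interval -1.83 to -5.0e-05, adjusted p = 0.13). It was -0.41 without wildtype replicate 1 (adjusted p = 0.34) and -1.30 without wildtype replicate 2 (adjusted p = 0.059). Within each array, the log2 ratio of the Col9a3 to the Col9a1 probe was 0.31 ± 0.10 in Wt (Schmid background) and -0.39 ± 0.33 in Schmid (SD, n = 3 each), lower on all 3 Schmid arrays. On these arrays Col9a3 was thus lower relative to Col9a1 in Schmid, although the 95% confidence intervals of the 2 changes overlapped. The other ratios within collagen IX overlapped in Schmid, with differences of -0.45 for Col9a3 to Col9a2 and 0.25 for Col9a1 to Col9a2. In Cog the Col9a3 to Col9a1 ratio was higher by 0.37, with overlap. The share of all probe pairs whose ratio separates the groups was not computed. With 3 arrays against 3 an exact permutation test cannot give a p below 0.1, so no p is given for such ratios.

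The probes of collagen XI did not move alike. The bright probe of Col11a2 read 15.88, 16.52 and 16.57 in Schmid and 18.20, 17.83 and 17.71 in Wt (Schmid background). The groups were more than 1 log2 unit apart at their nearest arrays. The fold change was -3.01 (log2 -1.59, 95% confidence interval -2.06 to -1.12, adjusted p = 0.00082), the smallest adjusted p of the 10 probes. The dim Col11a2 probe read 10.25, 10.59 and 10.43 against 10.83, 10.49 and 11.34, which overlapped, with a difference of -0.46 (95% confidence interval -0.90 to -0.03, adjusted p = 0.11). The 2 probes of the gene therefore disagree on the call and the size, although both differences are negative. The dim probe's difference was 0.077 once trends over rows and GC content were removed.

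The probes of Col11a1 disagreed further. The bright probe was at the ceiling of the scanner: raw values ran from 64.8% to 99.9% of saturation, and it was saturated on 5 of 12 arrays, namely replicates 2 and 3 of Schmid and of Wt (Schmid background) and replicate 2 of Wt (Cog background). Its normalized level was 19.14, 19.10 and 19.10 in Schmid and 19.07, 19.11 and 19.07 in the wildtype, while the highest level on any array is 19.18. Its difference of 0.03 (95% confidence interval -0.22 to 0.27, adjusted p = 0.87) therefore comes from values with little room to move. The dim probe, at 0.776% to 17.4% of saturation, read 13.21, 15.12 and 15.02 in Schmid and 16.75, 15.91 and 15.59 in the wildtype. The groups did not overlap, and Schmid replicate 1 was far below the other two.

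The dim Col11a1 probe had a fold change of -3.11 in Schmid (log2 -1.64, 95% confidence interval -2.73 to -0.54, adjusted p = 0.037). This call was the least secure of the 4. It was lost without Schmid replicate 1 (log2 -1.02, adjusted p = 0.093), without wildtype replicate 1 (log2 -1.30, adjusted p = 0.088) and without wildtype replicate 2 (log2 -1.72, adjusted p = 0.083). It was also lost with only the 6 arrays of the comparison (adjusted p = 0.095), with array weights (log2 -1.04, adjusted p = 0.072) and with the replicate number as a block (adjusted p = 0.060).

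**Figure D3:**
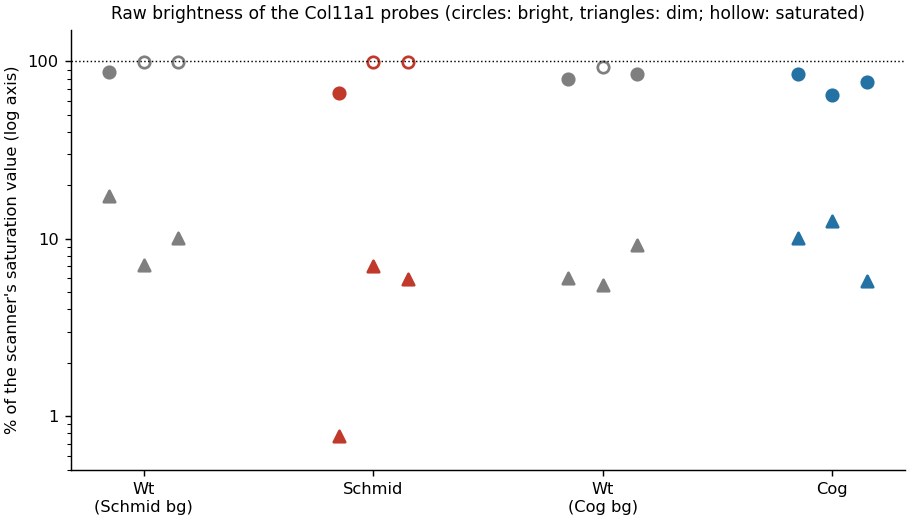
Raw intensity of the 2 Col11a1 probes as a percentage of the scanner's saturation value (vertical log axis) on each array of the 4 groups. Circles are the bright probe (64.8% to 99.9%), triangles the dim probe (0.776% to 17.4%), and hollow circles the 5 saturated readings; the lowest triangle is Schmid replicate 1.

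Within each array, the log2 ratio to Col2a1 (second probe) was computed for the brightest probes of Col9a1, Col9a2, Col9a3 and Col11a2 and for the dim Col11a1 probe. In Schmid it was lower on all 3 arrays than on all 3 wildtype arrays for Col9a3 (difference -1.24), Col11a2 (-1.22), the dim Col11a1 probe (-1.27) and Col9a2 (-0.80), and overlapped for Col9a1 (-0.54). Without Schmid replicate 1 the differences for the dim Col11a1 probe and Col9a2 were -0.54 and -0.43, and without wildtype replicate 1 those for Col9a3 and Col9a1 were -0.80 and -0.07. In Cog the ratio was lower on all 3 arrays for the 3 collagen IX chains, with differences of -0.76 for Col9a1, -0.64 for Col9a2 and -0.39 for Col9a3. Leaving out Cog replicate 3 gave -0.47 for Col9a1 and -0.38 for Col9a2. In Cog the ratio overlapped for Col11a2 (-0.24) and the dim Col11a1 probe (0.91). Because the second Col2a1 probe itself differed little (-0.37 in Schmid, -0.01 in Cog), these ratios largely repeat the probe differences. For single probes, all mutant arrays lay below all wildtype arrays at 26% of probes in Schmid and 13% in Cog. That share was not computed for ratios to Col2a1. The dim Col11a1 probe and the bright Col11a2 probe, which read partner chains of collagen XI, had log2 ratios to each other of -2.67, -1.39 and -1.56 in Schmid and -1.45, -1.92 and -2.12 in its wildtype. These groups overlapped, and the difference of -0.05 became 0.35 without Schmid replicate 1. Whether the brightness of the Col2a1 probes affects such ratios was not tested.

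In Cog, 0 of the 10 probes were called lower and 0 higher by limma, against 0.748% and 1.56% of all probes, and 1 of the 10, Col9a2, had an unadjusted p under 0.05, against 21.3% of all probes. Collagen II levels in Cog lay within the spread between its wildtype mice or close to it. The 10-spot Col2a1 probe read 18.74, 18.45 and 18.66 in Cog and 18.73, 18.80 and 18.53 in Wt (Cog background), a difference of -0.07 (95% confidence interval -0.33 to 0.20). The second probe differed by -0.01 (95% confidence interval -0.30 to 0.29).

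The collagen IX chains were lower on every Cog array than on every wildtype array, without reaching the threshold. This held for 3 of the 10 probes, against 13% of all probes. Col9a1 read 15.28, 15.16 and 14.48 in Cog and 15.76, 15.82 and 15.65 in the wildtype, a difference of -0.77 (95% confidence interval -1.69 to 0.15, adjusted p = 0.32). Col9a2 read 18.13, 17.86 and 17.35 against 18.25, 18.57 and 18.46, a difference of -0.65 (95% confidence interval -1.21 to -0.10, adjusted p = 0.17). Col9a3 read 15.68, 15.31 and 15.31 against 15.84, 15.73 and 15.92, a difference of -0.40 (95% confidence interval -1.16 to 0.36, adjusted p = 0.54). The wildtype mice of this background were close together at all 3 probes, with SDs from 0.08 to 0.16.

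The collagen XI probes did not share a direction in Cog, and 0 passed the threshold. The bright Col11a2 probe read 17.71, 17.26 and 17.40 against 17.54, 17.73 and 17.85, which overlapped, with a difference of -0.25 (95% confidence interval -0.72 to 0.22, adjusted p = 0.54). The dim Col11a2 probe differed by -0.05 (95% confidence interval -0.48 to 0.39) and the bright Col11a1 probe by 0.06 (95% confidence interval -0.18 to 0.31). The dim Col11a1 probe read 16.32, 16.02 and 15.27 in Cog and 15.07, 14.77 and 15.05 in its wildtype. Here all Cog arrays were above all wildtype arrays, with a difference of 0.91 (95% confidence interval -0.19 to 2.00, adjusted p = 0.33). Its log2 ratio to Col11a2 within an array was higher in Cog by 1.16, with no overlap.

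**Figure D4:**
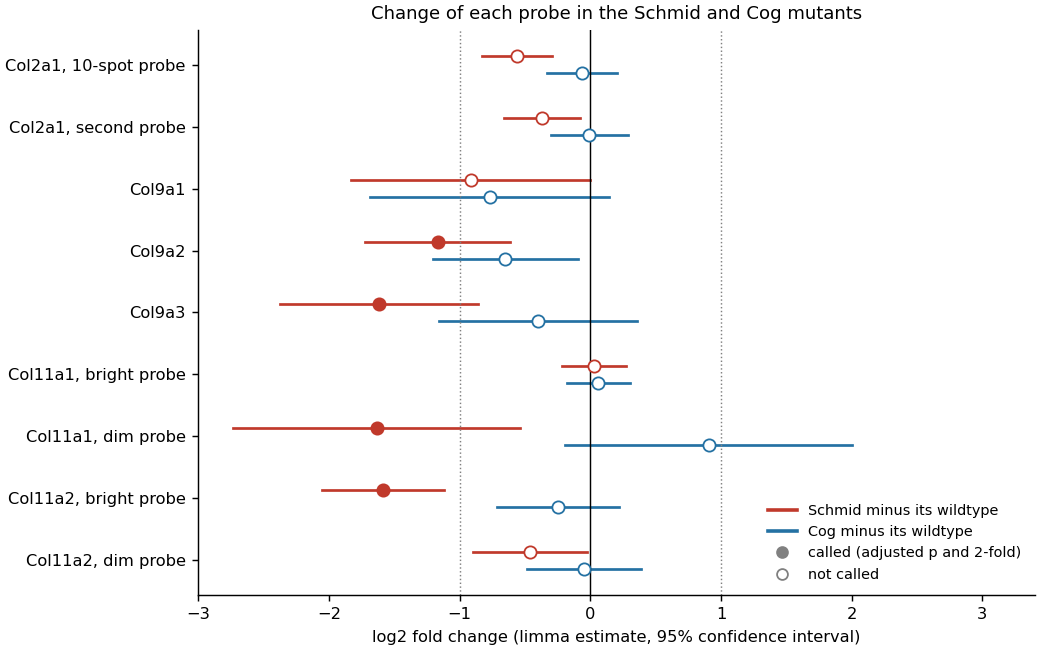
Log2 fold change (horizontal axis) of the 9 probes in Schmid (red) and Cog (blue), each against its own wildtype, with 95% confidence intervals from the limma fit. Filled points are called; dotted lines mark a 2-fold change. The 4 called probes are all Schmid values between -1.64 and -1.17, and the dim Col11a1 probe is the member with the highest Cog value, 0.91.

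The difference between the mutants was tested directly, as the change in Schmid minus the change in Cog. Of the 10 probes, 2 were called, both lower in Schmid, against 10.3% of all probes called in either direction. They were the bright Col11a2 probe (log2 -1.34, 95% confidence interval -2.00 to -0.68, adjusted p = 0.014) and the dim Col11a1 probe (log2 -2.54, 95% confidence interval -4.09 to -0.99, adjusted p = 0.034). The Col11a2 call was lost with the processed signal scaled to a common 75th percentile (log2 -1.68, adjusted p = 0.060). The Col11a1 call was lost with the replicate number as a block (adjusted p = 0.058), and on leaving out any 1 of 7 arrays: replicate 1 or 2 of Wt (Schmid background), replicate 1 or 2 of Cog, or any replicate of Wt (Cog background), with adjusted p from 0.051 to 0.077. For collagen IX the difference was -1.22 for Col9a3 (95% confidence interval -2.29 to -0.14, adjusted p = 0.11), -0.52 for Col9a2 (adjusted p = 0.34) and -0.15 for Col9a1 (95% confidence interval -1.44 to 1.15, adjusted p = 0.89). For the 10-spot Col2a1 probe it was -0.50 (adjusted p = 0.071).

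Between the wildtype groups, 0 of the 10 probes were called by limma, against 0.469% of all probes, and 1 of the 10 had an unadjusted p under 0.05, close to the 14.1% of all probes. That probe was the dim Col11a1 probe, whose 3 Wt (Schmid background) arrays were all above the 3 Wt (Cog background) arrays (log2 1.12, 95% confidence interval 0.02 to 2.22, adjusted p = 0.34). The Schmid and Cog comparisons of this probe thus start from wildtype levels of 16.09 ± 0.60 and 14.96 ± 0.16 (SD, n = 3 each). Strain background and slide differ together between these groups and cannot be told apart.

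By mean level, both Col2a1 probes, Col9a2, Col9a3, Col9a1, the bright Col11a2 probe and the dim Col11a2 probe shared one order in which Schmid was lowest, Cog next and the wildtypes highest. For Col11a2 the bright probe averaged 16.32 ± 0.38 in Schmid, 17.46 ± 0.23 in Cog, 17.71 ± 0.16 in Wt (Cog background) and 17.91 ± 0.25 in Wt (Schmid background), and the upper neighbours did not differ past the threshold (adjusted p of 0.54 and 0.74). For Col9a3 the means were 14.08 ± 0.27 in Schmid, 15.43 ± 0.21 in Cog, 15.69 ± 0.85 in Wt (Schmid background) and 15.83 ± 0.09 in Wt (Cog background), where the wildtypes also did not differ past the threshold (adjusted p = 0.92). The dim Col11a1 probe had another order, with Schmid at 14.45 ± 1.08, Wt (Cog background) at 14.96 ± 0.16, Cog at 15.87 ± 0.54 and Wt (Schmid background) at 16.09 ± 0.60. These orders only describe means: the levels of Schmid and Cog were not tested against each other, as each has its own wildtype.

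Among mice of the same group, some chains rose and fell together. After the group means were removed from the 12 arrays, the Pearson correlation between 2 genes (Col11a1 by its dim probe) ranged over the 15 pairs from -0.46 to 0.89, with a median of 0.21. The highest values were 0.89 for Col9a1 and Col9a3, 0.87 for Col9a2 and Col11a1, 0.84 for Col11a1 and Col11a2 and 0.81 for Col9a2 and Col11a2. Col2a1 had its lowest values with Col11a1 and Col9a2, both at -0.46. These are descriptions over 12 arrays that share 4 slides and a common normalization.

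Among 10408 other genes well above background on all arrays, the profile most like the mean of the 6 members was that of Nid2, a basement membrane nidogen (Pearson r = 0.986 over the 12 arrays). It was followed by Enpp2, which encodes autotaxin (0.973), Gpx7, an endoplasmic reticulum peroxidase (0.950), Egfl7, a secreted protein of blood vessels (0.946), and Bcl2l11, which encodes the death protein Bim (0.943). Such values are set largely by the differences between the groups, as the 12 arrays fall into 4 groups. With the dim Col11a1 probe in place of the saturated one, Nid2 (0.958), Egfl7 (0.944) and Enpp2 (0.943) were again among the 5 nearest, beside Stim1 (0.953) and D930017K21Rik (0.939). The gene most like a single member was Pthr1, the receptor for parathyroid hormone-related protein, for Col2a1 (0.887), Gpx7 for Col9a1 (0.932), M77174 for Col9a2 (0.949), Nid2 for Col9a3 (0.960), D930017K21Rik for Col11a2 (0.973) and Dnmt3a for the dim Col11a1 probe (0.922). The nearest to the bright Col11a1 probe was Rps16 (0.857), read against values close to saturation.

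Of 8 other fibril-forming collagens, 1 was called lower in Schmid and 1 higher, with a median of -0.35, beside 4.69% and 5.78% of all probes. Col1a1, the main bone collagen chain, was lower (log2 -1.23, adjusted p = 0.036) and Col5a1, the collagen V relative of Col11a1, was higher (log2 1.31, adjusted p = 0.050). In Cog 0 of 8 were called, with a median of -0.03. For the difference between the mutants 1 of 8 was called, against 10.3% of all probes. It was Col24a1 (log2 -2.88, adjusted p = 0.046), at -0.51 in Schmid and 2.37 in Cog. Neither of these changes passed the threshold (adjusted p of 0.57 and 0.056). Among 7 other collagens of the growth plate and fibril surface, Col16a1 was called lower in Schmid (log2 -1.34, adjusted p = 0.023), 0 were called in Cog, and the medians were -0.19 and -0.28.

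Proteins that bind the fibrils included 4 called lower in Schmid of 13 measured, and 0 higher, with a median of -0.84. Of all probes, 4.69% were called lower and 5.78% higher. Matn1, a matrilin that links collagen fibrils to proteoglycans, was lower by a log2 difference of -2.61 (adjusted p = 0.0014), Chad, the collagen-binding chondroadherin, by -1.94 (adjusted p = 0.0012), Matn2 by -1.77 (adjusted p = 0.0037) and Fmod, fibromodulin, by -1.58 (adjusted p = 0.022). In Cog 0 of 13 were called and the median was 0.02. Matn1 and Chad changed more in Schmid than in Cog, with log2 differences of -2.18 (adjusted p = 0.023) and -2.10 (adjusted p = 0.0069). They were 2 of the 13 genes, against 10.3% of all probes called for that difference, which holds the same Schmid values. The Matn1 probe is in row 21 and the Chad probe in row 531. Values with the trend over rows removed are not given for them.

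Genes for collagen processing and crosslinking split in Schmid, with 4 of 21 called lower and 2 higher, beside 4.69% and 5.78% of all probes. The lower ones were Pcolce (log2 -2.29, adjusted p = 0.0020) and Pcolce2 (log2 -1.34, adjusted p = 0.0012), enhancers of C-propeptide cleavage, Bmp1 (log2 -1.84, adjusted p = 0.0016), which cleaves the C-propeptide, and Adamts2 (log2 -1.92, adjusted p = 0.0015), which removes the N-propeptide. The related proteinases Adamts3 (log2 -0.51, adjusted p = 0.30) and Tll1 (log2 0.32, adjusted p = 0.36) were not called. The higher ones were Loxl2, a lysyl oxidase relative that crosslinks collagen (log2 1.80, adjusted p = 0.017), and P4hb, the shared subunit of prolyl 4-hydroxylase. Loxl2 was also the only gene of the 6 lists called in Cog (log2 2.21, adjusted p = 0.025). All 4 of the lower genes were also called between the mutants (adjusted p from 0.0060 to 0.033), against 10.3% of all probes. That difference holds the same Schmid values that picked these genes, so it is not separate evidence. Their probes are in rows 10 (Bmp1), 77 (Pcolce), 146 (Adamts2) and 184 (Pcolce2). Values with the trend over rows removed are not given for them.

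The transcription factors that switch on the cartilage collagen genes were not called in either mutant. For Sox9, their master regulator, the log2 difference from the wildtype was 0.46 in Schmid and 0.23 in Cog, with adjusted p of 0.42 and 0.79. For Sox6, a partner of Sox9, it was 1.08 and -0.26, with adjusted p of 0.057 and 0.73. For Sox5, another partner, it was -0.31 and -0.28, with adjusted p of 0.22 and 0.40. Of the 9 regulators and export genes, 3 were called in Schmid, beside 4.69% of all probes called lower and 5.78% called higher. Sec23a (log2 1.85, adjusted p = 0.036) and Sec24d (log2 1.76, adjusted p = 0.027), coat proteins of the vesicles that carry procollagen out of the endoplasmic reticulum, were higher, and Mia1, a secreted cartilage protein, was lower (log2 -1.82, adjusted p = 0.0017). Of 13 collagen II receptors and degrading enzymes, 0 were called by limma in either mutant, with medians of -0.39 and -0.08.

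**Figure D5:**
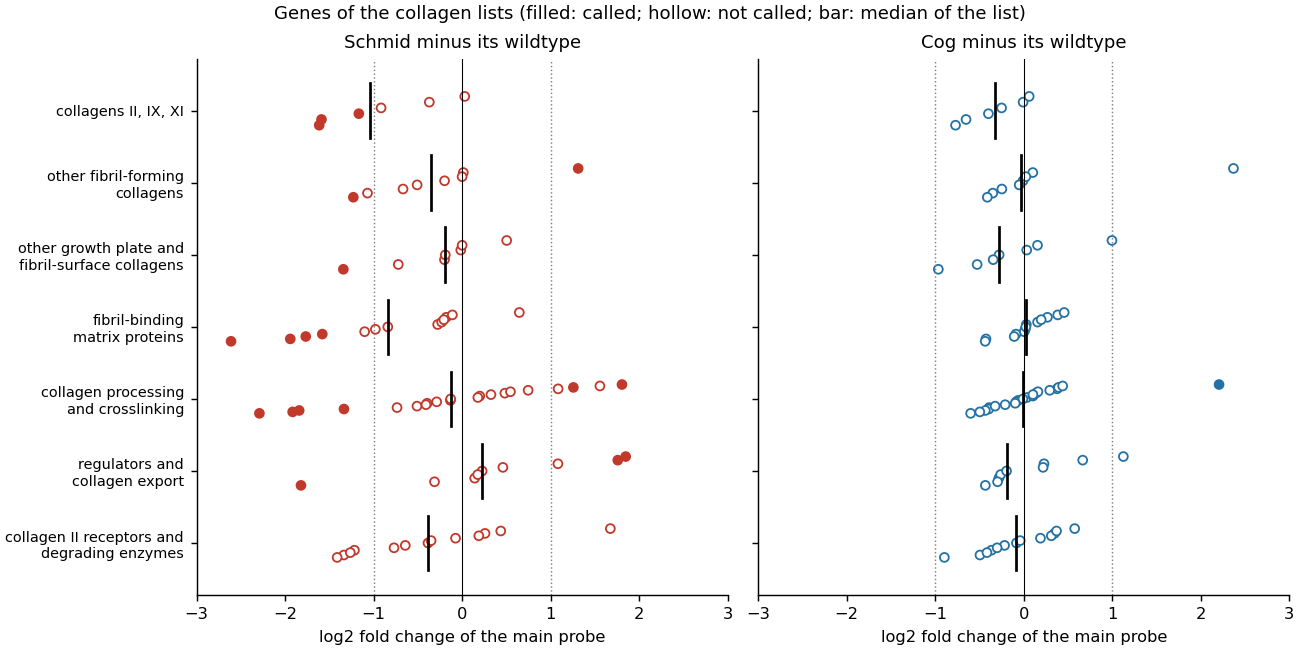
Log2 fold change (horizontal axis) of the brightest probe of each gene in the 6 collagens and in 6 lists of related genes, in Schmid (left) and Cog (right). Filled points are called and bars are list medians. The median of the 6 collagens is -1.04 in Schmid and -0.32 in Cog.

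Markers of other cells moved beside the collagens in Schmid, and their part in the collagen values was not tested. The markers named here were picked out of their lists after their values were seen. Of all probes, 4.69% were called lower in Schmid and 5.78% higher. Of 6 hypertrophic zone markers, 2 were lower (Ihh and Akp2), and the log2 of the list's summed intensity was 18.48 to 18.75 in Schmid and 18.95 to 19.92 in its wildtype. Of 6 proliferative zone markers, 3 were higher (Ncam1, Prnp and Ung) and 1 lower (Fmod), with summed levels of 17.82 to 17.97 and 16.93 to 18.11. The study had already reported Ncam1, Prnp and Ung as high in Schmid on these arrays, so those calls are not separate evidence. The other markers of the list, Fmod, Prelp and Gdf10, differed by log2 -1.58, -1.10 and -0.31, the last 2 not called. Of 5 chondrocyte markers 0 were called, with summed levels of 20.16 to 20.26 and 20.38 to 20.61, which did not overlap. The sum is weighted to the brightest genes of a list. By the mean of the log2 levels the chondrocyte list overlapped, at 16.66 to 16.94 in Schmid and 16.71 to 17.66 in its wildtype.

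Some blood, vessel and bone markers were called lower as well. Of 5 red cell markers 3 were lower (Hbb-b1, Hba-a1 and Alas2), with summed levels of 14.59 to 16.05 in Schmid and 17.94 to 19.91 in its wildtype. Of 5 endothelial markers 3 were lower (Cdh5, Kdr and Emcn; Pecam1 was never well above background), with summed levels of 12.32 to 12.87 and 14.16 to 14.92. Of 6 osteoclast markers 1 was lower, Mmp9, and Atp6v0d2 was never well above background. The summed levels of this list were 13.65 to 14.17 and 15.21 to 16.50. The study lists Mmp9 as a hypertrophic cartilage marker. In Wt (Schmid background) it was the brightest gene of the osteoclast list, averaging 15.14, so the sum largely follows it there. Of 5 osteoblast markers 1 was lower (Col1a1), at 18.98 to 19.47 and 19.38 to 20.20. Of 6 neutrophil markers 0 were called, at 12.35 to 15.39 and 13.01 to 18.71, and of 6 fibroblast and perichondrium markers 0 were called, at 14.79 to 16.47 and 15.42 to 16.36, with Dpt and Tnmd never well above background. By the mean of the log2 levels the osteoblast list did not overlap, at 14.84 to 15.41 in Schmid and 15.42 to 16.74 in its wildtype. The probes of Mmp9, Cdh5 and Hbb-b1 are in rows 9, 27 and 63, and values with the trend over rows removed are not given for them.

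In Cog, 3 marker genes were called, Ihh and Dmp1 lower and Scx higher, beside 0.748% of all probes called lower and 1.56% called higher. The summed endothelial level was 13.40 to 14.25 in Cog and 14.47 to 14.86 in its wildtype, and every Cog array was below every wildtype array. The summed neutrophil level was 14.46 to 16.91 in Cog and 13.42 to 13.94 in its wildtype, with every Cog array above every wildtype array, although 0 of its 6 genes were called. The summed levels of the other 7 lists overlapped, among them the chondrocyte list (20.37 to 20.59 and 20.27 to 20.44) and the hypertrophic zone list (19.37 to 19.65 and 19.34 to 20.27). By the mean of the log2 levels the osteoblast list did not overlap, at 15.44 to 15.70 in Cog and 16.00 to 16.39 in its wildtype. The part of these markers in the Cog values of the collagens was not tested.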

How the data were processed

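The deposited files hold, for each of 12 mice, the intensity of every spot on an Agilent 44K whole mouse genome array, as the authors obtained it with Agilent Feature Extraction 9.5.3 after 2 rounds of linear RNA amplification, and a deposited series matrix of log2 values. Agilent gene names, accessions and mm7 positions were used as given.

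Spots marked as outliers were left out, foreground and local background were combined by normexp (offset 50), and log2 values were quantile normalized and a probe was given the mean of its spots. The lowest correlation of an array with the series matrix was 0.99987. Group means were fitted with limma 3.58.1 in R 4.3.3 (8 residual degrees of freedom), and p-values were adjusted over 41174 probes. Calls needed a 2-fold change and an adjusted p no higher than 0.05. The script was tested on simulated data. Precision is limited by 3 mice per group. Replicates are separate mice.

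The members, the lists of related genes and the markers were chosen with earlier results of these data known. All member probes are given; of each list of related genes, up to 4 called genes with the largest changes are named, as are genes that differed between the mutants, Sox5, Sox6 and Sox9, and the genes most like the members by Pearson correlation; P4hb, Adamts3, Tll1 and Col10a1 were added after their values were seen. Epyc, Adamts14, Bglap2, Esam and Hbb-b2 have no probe under these names and were not analysed here. Alternatives were the processed signal, the series matrix, trends over rows and GC content removed (lowess, span 0.1), dim probes or outlier spots treated otherwise, array weights, slide as a random block, a replicate block, other arrays and the call rule. Leaving out arrays from the ratios between probes was added after seeing the data.

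Replicate numbers of Schmid and its wildtype were treated as possible pairs: over probes well above background on all arrays, deviations of same-numbered mice from their group means correlated at 0.31, 0.28 and 0.12 (0.19, 0.17 and 0.07 over all probes). For Cog the values were -0.21, 0.15 and -0.20, and no pairing was assumed. Same-numbered mice of the wildtype groups, which differ in background, gave 0.50, 0.12 and 0.27 over the probes well above background. Schmid replicate 3 did not correlate best with its own number. The Schmid values therefore do not show that its mice were paired with the wildtype.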

Additional observations from a re-analysis of the deposited data

Results flagged for a closer look

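The changes of 2 probes differed between the mutants. For the dim probe of Col11a1 the change in Schmid minus the change in Cog was -2.54 on the log2 scale: the probe was lower on 3 of 3 Schmid arrays than on every array of its wildtype, and higher on 3 of 3 Cog arrays than on every array of its own. The wildtype groups stood 1.12 apart at this probe, in the direction that adds to the difference. The bright Col11a1 probe was saturated on 5 of 12 arrays. It could not serve as a check in Schmid, where replicates 2 and 3 of both groups were saturated. In the Cog comparison only replicate 2 of Wt (Cog background) was saturated. There the bright probe differed by 0.06 (95% confidence interval -0.18 to 0.31) and did not repeat the 0.91 of the dim probe. Its Cog readings were 64.8% to 84.8% of saturation, and whether this limits its change was not tested.

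For the bright probe of Col11a2 the difference was -1.34, with Schmid lower than its wildtype on 3 of 3 arrays and Cog overlapping its wildtype. The dim Col11a2 probe gave -0.42 (adjusted p = 0.33) for the same difference. Groups of 3 are too small for a test of single outlying arrays, so Schmid replicate 1 at the dim Col11a1 probe (13.21, against 15.12 and 15.02) is given as a value.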

How the results depend on the processing

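Of the 4 member probes called lower in Schmid, Col9a3 and the bright Col11a2 probe were called under each of the 17 alternatives that apply (adjusted p of 0.0013 to 0.047 and 0.00023 to 0.010). With array weights 2 were called lower, and on leaving out single arrays 2 to 4. The counts called higher in Schmid, called in Cog in either direction, and called between the wildtypes were 0 under every alternative. For the difference between the mutants, 1 probe was called with the processed signal at a common 75th percentile (Col11a1), 1 with the replicate block (Col11a2), and 1 to 2 on leaving out single arrays. Under the replicate block no call changed other than those of the dim Col11a1 probe in Schmid and between the mutants. Slide as a random block gave a correlation of -0.12 and, like array weights, added a call of Col9a3 between the mutants (log2 -1.19, adjusted p = 0.044, with the slide). Schmid, Cog and Wt (Cog background) each lie on a single slide, so this model cannot tell a slide effect from those groups. A call that it adds is therefore no check against the slide. The causes were not tested.

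Scaling to the 75th percentile moved the median log2 change of all probes by -0.33 in Schmid, 0.43 in Cog, -0.63 between the mutants and -0.12 between the wildtypes. With processed, quantile normalized signal 58.0% of Schmid calls over all probes were lower, against 44.8% in the main setting, and with trends over rows and GC content removed 34.4%.

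Signs turned only for differences that were not called. At the 75th percentile these became -0.060 in Schmid, -0.12 in Cog and 0.064 between the mutants for the bright Col11a1 probe, 1.8e-05 in Cog for the dim Col11a2 probe, 0.0014 between the mutants for Col9a1, and, between the wildtypes, 0.45 for the 10-spot Col2a1 probe and 0.15 for Col9a2. With trends over rows and GC content removed they became 0.077 in Schmid and 0.13 between the mutants for the dim Col11a2 probe, 0.0083 in Cog for the 10-spot Col2a1 probe, and -0.11 in Cog and 0.34 between the mutants for the bright Col11a1 probe. With the row trend alone removed the last 2 were -0.12 and 0.34, and the 10-spot Col2a1 probe gave 0.0040 between the wildtypes. The quantile normalized processed signal gave, for the bright Col11a1 probe, -0.080 in Cog, 0.24 between the mutants and -0.026 between the wildtypes, where the Col2a1 probes gave 8.0e-04 and -0.040. Array weights gave -0.011 and 0.028 for the bright Col11a1 probe in Cog and between the mutants, the slide block 0.011 for the dim Col11a2 probe in Cog, outlier spots kept 1.7e-04 for the second Col2a1 probe in Cog, and the series matrix -0.043 for it between the wildtypes.

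Leaving out single arrays, the Cog differences ran from -0.15 to 0.017 and -0.084 to 0.096 for the Col2a1 probes, -0.0067 to 0.17 for the bright Col11a1 probe and -0.11 to 0.057 for the dim Col11a2 probe. Those between the mutants ran from -0.53 to 0.36 for Col9a1 and -0.14 to 0.035 for the bright Col11a1 probe. Those between the wildtypes ran from -0.096 to 0.040 and -0.051 to 0.067 for the Col2a1 probes, -0.87 to 0.028 for Col9a1, -0.15 to 0.0053 for Col9a2, -0.62 to 0.19 for Col9a3 and -0.064 to 0.36 for the dim Col11a2 probe.

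Signal limits these comparisons at both ends. The bright Col11a1 probe reached 99.9% of saturation and the Col2a1 probes up to 91.5%, near the end of the scale, while the Col2a1 probe on AK053784 was too dim on all 12 arrays to give a difference. With 3 mice per group, confidence intervals of the collagen IX changes in Cog reach down to -1.69, so larger decreases than those measured lie within them.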
